A study of Mus musculus with 6 samples.

Results

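The genes described here are 46 genes of the G2 phase and mitosis, picked by symbol from a table of 25239 genes, and all 46 were present. They were measured in primary lung fibroblasts of the mouse, in 3 libraries from cells made senescent with Nutlin 3a and 3 libraries from cells labelled quiescent. The labels describe the senescent treatment as RO3306, an inhibitor of the kinase Cdk1, for 16 hours, then Nutlin 3a, which frees p53 from Mdm2, for 48 hours, and then 100 nM BI-2536, an inhibitor of the kinase Plk1, to remove cells that still divided, for 12 days in total. Both groups were grown in DMEM with 10% fetal bovine serum and antibiotics at 5% oxygen. The quiescent samples carry the same treatment text, and the sources used here do not say how quiescence was reached. Nor do they give the strain, sex or age of the mice, or whether replicates came from separate animals or cultures. The p-values therefore measure only the spread among these 6 libraries, which may be technical.

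A cell that enters mitosis activates Cdk1 with B-type cyclins, condenses its chromosomes, builds a spindle and attaches each chromosome to it at the kinetochore. The spindle checkpoint holds the cell until all chromosomes are attached, the anaphase-promoting complex then has securin and cyclin B destroyed, and cytokinesis divides the cell. The genes of this program are transcribed mostly in late S phase, G2 and mitosis. In resting cells, and in cells with active p53, many of them are known to be repressed by the DREAM complex. It binds a promoter element of these genes called the CHR (cell cycle genes homology region), searched here only as TTTGAA. B-Myb and FoxM1, acting through the same element in dividing cells, are known to activate them, often together with the factor NF-Y at CCAAT boxes.

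Promoter windows of 250 bases before to 50 after the annotated start were listed in the RefSeq table (build GRCm38.p6) for 37 of the 46 genes. The 4 windows below belong to the members that fell most among those with both a CHR and a CCAAT box, and are shown so that the arrangement of these elements can be seen. Each is written 5′ to 3′ on the strand of its gene, with the CHR (TTTGAA or its complement TTCAAA) and the CCAAT box (CCAAT or its complement ATTGG) in capitals. They lie at chr1:139454523-139454822 on the plus strand, chr1:189688037-189688336 on the minus strand, chr6:124829926-124830225 on the plus strand and chr9:70421505-70421804 on the minus strand.
Aspm: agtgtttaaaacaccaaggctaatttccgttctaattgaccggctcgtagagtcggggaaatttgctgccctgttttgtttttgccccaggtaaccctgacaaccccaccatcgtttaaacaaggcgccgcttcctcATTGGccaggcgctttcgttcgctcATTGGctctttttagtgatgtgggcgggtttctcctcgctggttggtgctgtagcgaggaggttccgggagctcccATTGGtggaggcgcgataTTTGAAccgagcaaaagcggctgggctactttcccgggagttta
Cenpf: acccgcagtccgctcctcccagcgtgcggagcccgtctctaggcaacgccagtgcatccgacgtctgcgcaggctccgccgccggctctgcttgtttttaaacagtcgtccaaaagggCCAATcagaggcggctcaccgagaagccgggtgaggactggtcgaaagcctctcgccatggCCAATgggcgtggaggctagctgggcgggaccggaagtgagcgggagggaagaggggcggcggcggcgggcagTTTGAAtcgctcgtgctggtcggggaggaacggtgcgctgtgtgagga
Cdca3: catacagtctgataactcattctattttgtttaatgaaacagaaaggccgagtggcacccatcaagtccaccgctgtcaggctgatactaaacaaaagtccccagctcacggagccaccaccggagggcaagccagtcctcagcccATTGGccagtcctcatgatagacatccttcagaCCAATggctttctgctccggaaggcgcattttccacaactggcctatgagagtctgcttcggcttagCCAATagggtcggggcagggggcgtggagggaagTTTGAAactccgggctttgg
Ccnb2: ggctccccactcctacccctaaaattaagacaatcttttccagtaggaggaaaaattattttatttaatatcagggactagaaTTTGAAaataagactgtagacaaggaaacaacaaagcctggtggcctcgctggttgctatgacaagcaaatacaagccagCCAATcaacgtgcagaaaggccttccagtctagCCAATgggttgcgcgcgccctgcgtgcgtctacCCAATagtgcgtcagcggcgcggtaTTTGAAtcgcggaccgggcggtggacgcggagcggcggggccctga

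The windows of Pttg1, the member that fell least, and Nusap1, the member that fell second most, held neither sequence and were chosen for contrast after their values were seen. They lie at chr11:43425932-43426231 on the minus strand and chr2:119618048-119618347 on the plus strand. The Pttg1 window lies wholly inside the span of that gene in the GENCODE annotation (43420250 to 43426251). The sequence before the GENCODE start of Pttg1 was therefore not searched. The Cdca3 window above also lies inside the GENCODE span of its gene (124829547 to 124833701).
Pttg1: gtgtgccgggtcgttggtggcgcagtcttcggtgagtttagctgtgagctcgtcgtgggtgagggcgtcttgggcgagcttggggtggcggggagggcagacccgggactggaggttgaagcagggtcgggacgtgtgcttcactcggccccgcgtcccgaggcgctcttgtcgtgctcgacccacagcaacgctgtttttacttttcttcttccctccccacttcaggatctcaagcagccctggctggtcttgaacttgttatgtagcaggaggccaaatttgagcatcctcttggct
Nusap1: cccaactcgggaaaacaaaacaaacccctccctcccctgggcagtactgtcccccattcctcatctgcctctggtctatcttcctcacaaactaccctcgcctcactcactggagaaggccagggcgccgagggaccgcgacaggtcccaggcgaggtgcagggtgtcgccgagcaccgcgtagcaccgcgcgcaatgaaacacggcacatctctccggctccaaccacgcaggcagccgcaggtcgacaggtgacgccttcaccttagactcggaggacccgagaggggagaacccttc

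Gene totals were 93736593 to 109706025 counts per library, of which 18219831 to 21386546 lay outside Rn45s, Lars2 and Mir6236, rows that collect mostly ribosomal sequence. Levels are given as CPM, counts scaled to a common library total with TMM factors (trimmed mean of M-values), with those rows included in the total. Of 8 fibroblast markers, 5 fell and 2 rose, and they summed to 2150 to 2623 CPM in senescent libraries and 3855 to 3942 CPM in quiescent libraries. Those that fell were Col3a1 (log2 fold change -1.95), Pdgfra (-1.45), Pdgfrb (-1.01), Col1a2 (-0.47) and Lum (-0.46). Vim (0.32) and Dcn (0.18) rose. Col1a1 was not called (edgeR adjusted p = 0.0857), at 739 to 935 CPM in senescent and 906 to 1007 CPM in quiescent libraries. Of 8 markers of macrophages and leukocytes, 4 rose, and they summed to 10.8 to 14.2 CPM in senescent and 3.99 to 4.26 CPM in quiescent libraries, with Ptprc and Adgre1 at 0 in some libraries. Each list of endothelial, epithelial and mesothelial markers summed to under 8 CPM in every library. Of 7 endothelial markers, Tek fell (log2 fold change -2.67) and Cdh5 rose (2.32), and they summed to 3.81 to 5.43 CPM in senescent and 5.79 to 6.13 CPM in quiescent libraries. Of 7 epithelial markers only Krt18 passed the filter and it rose (1.54), Nkx2-1 was at 0 in all 6 libraries, and of 5 mesothelial markers Upk3b (-1.64) and Msln (-0.67) fell. Senescent replicate 3 stood apart from the other senescent libraries, with a chi-square per degree of freedom of 15.6 and 19.9 against them, where the other within-group pairs gave 2.26 to 4.09. Without that library all 46 genes described here were still called lower, with a median log2 fold change of -1.91 in place of -2.02. The part of the marker differences in the results below was not tested.

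All 46 genes fell in senescent libraries by edgeR's quasi-likelihood test at an adjusted p under 0.05, a call made as lower for 37.8% of the 14065 genes tested and in either direction for 74.5%. The 46 genes, and the other lists below, were chosen with earlier results of these data known. Shares of all genes set beside them therefore serve as description, not as a test of the lists. Counts of the 46 summed to 129 ± 8.18 CPM in senescent libraries and 503 ± 12.7 CPM in quiescent libraries (SD, n = 3 each). The sums were 138, 129 and 121 CPM in the senescent libraries and 490, 502 and 515 CPM in the quiescent ones, so the groups lay far apart. The median log2 fold change of the 46 was -2.02, or 24.7% of the quiescent level, against a median of -0.02 over all tested genes. Tested against a 2-fold change with glmTreat, 43 of the 46 were lower, where 9.31% of all tested genes were lower and 8.20% higher. The quiescent libraries expressed these genes at a median of the 61.7 percentile of tested genes per kb of exon. Their percentiles there ran from 25.3 (Cdc25c) to 92.4 (Cdc20), with Mki67 at 88.7. Whether cells labelled quiescent still divided was not tested. In bulk RNA, fewer cells in G2 or mitosis and less of these transcripts per cell cannot be told apart. BI-2536 was given to remove dividing cells, and the labels do not settle whether the quiescent cells also received it. If only the senescent cells did, that removal and senescence cannot be told apart either.

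For all 46 genes the 3 senescent values lay below the 3 quiescent values, as they did for 39.9% of all tested genes. Member counts ran from 25 to 1435 in senescent libraries and from 143 to 6525 in quiescent libraries, so each gene was still detected in each senescent library. The median coefficient of variation of the 46 genes was 11% in senescent libraries and 4.21% in quiescent libraries. Lower counts alone raise this measure, and their part in the difference was not separated. Senescent replicate 1 was above the senescent mean for 35 of the 46 genes and senescent replicate 3 for 11, and the median deviations were 0.08 and -0.11 on the log2 scale. Quiescent replicate 3 was above the quiescent mean for 42 genes, with a median deviation of 0.05.

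**Figure D1:**
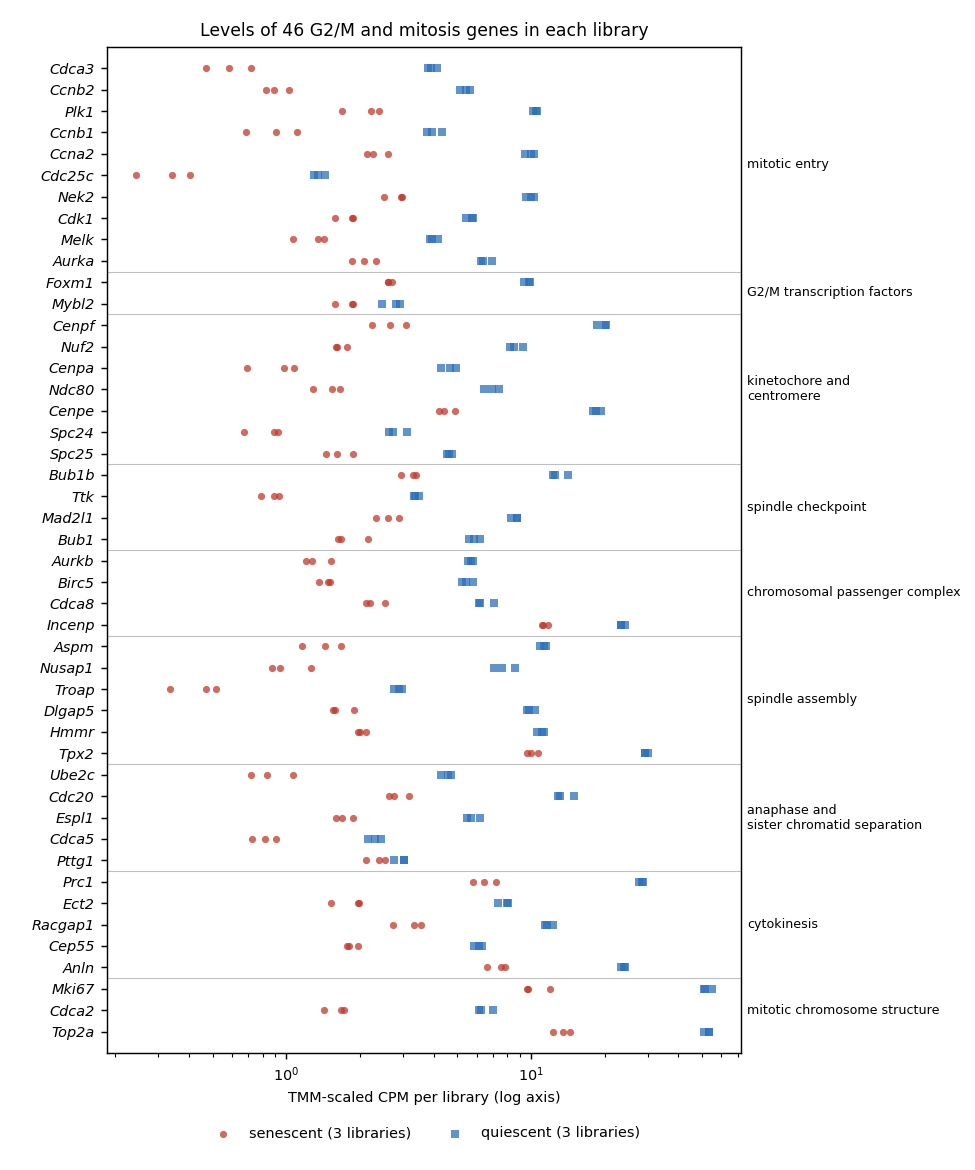
TMM-scaled CPM (log axis) of the 46 genes in each of the 3 senescent libraries (circles) and 3 quiescent libraries (squares), ordered by role and within a role by fall. No gene has overlapping groups, and the smallest gap is that of Pttg1, with 2.11 to 2.54 CPM in senescent and 2.77 to 3.03 CPM in quiescent libraries.

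The genes of mitotic entry all fell, with log2 fold changes between -2.73 and -1.64. Cdk1, the kinase that drives cells into mitosis and the target of RO3306 (chromosome 10, 69335146 to 69352938), had 1.85, 1.58 and 1.88 CPM in senescent libraries and 5.72, 5.45 and 5.81 CPM in quiescent libraries. Its log2 fold change was -1.67 (standard error 0.08, edgeR adjusted p = 9.0e-09), which leaves 31.3% of the quiescent level. Cdk1 was among the genes of this group that fell less, together with Aurka and Melk. Aurka, a kinase of centrosome maturation, had 2.32, 1.85 and 2.07 CPM in senescent and 6.95, 6.27 and 6.35 CPM in quiescent libraries, the smallest fall of the group (log2 fold change -1.64, standard error 0.09, edgeR adjusted p = 1.7e-08). Melk, a kinase gene of dividing cells, was at -1.65 on the log2 scale.

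The B-type cyclins, which activate Cdk1, fell as well, and whether they fell more than Cdk1 was not tested. Ccnb1 (cyclin B1, chromosome 13, 100778650 to 100786570) had 1.10, 0.682 and 0.904 CPM in senescent libraries and 3.76, 3.96 and 4.33 CPM in quiescent libraries, with a log2 fold change of -2.15 (standard error 0.14, edgeR adjusted p = 6.2e-08). Ccnb2 (cyclin B2) had 0.892, 1.03 and 0.826 CPM in senescent and 5.40, 5.14 and 5.61 CPM in quiescent libraries (log2 fold change -2.56, standard error 0.10). Cyclin A2, encoded by Ccna2 and used in S phase as well as G2, was at -2.08. Cdc25c, the phosphatase that removes the inhibitory phosphates of Cdk1, was at -2.06 and was the least abundant of the 46 genes, with 25 to 36 counts in senescent and 143 to 154 counts in quiescent libraries.

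Plk1 (chromosome 7, 122159439 to 122169873), the polo-like kinase that BI-2536 inhibits, had 2.39, 2.21 and 1.69 CPM in senescent libraries and 10.2, 10.5 and 10.5 CPM in quiescent libraries. It was at 20.2% of the quiescent level (log2 fold change -2.31, standard error 0.10, edgeR adjusted p = 3.7e-09), and senescent replicate 3 was the lowest. Nek2, a kinase of centrosome separation, was at -1.83. Cdca3, which promotes mitotic entry through the degradation of Wee1, fell most in this group, with 0.471, 0.581 and 0.719 CPM in senescent and 3.90, 3.78 and 4.14 CPM in quiescent libraries (log2 fold change -2.73, standard error 0.13, edgeR adjusted p = 4.7e-09).

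Both transcription factors of the program fell. Foxm1 (chromosome 6, 128362967 to 128376146), an activator of G2/M genes, had 2.69, 2.60 and 2.60 CPM in senescent libraries and 9.37, 9.78 and 9.91 CPM in quiescent libraries (log2 fold change -1.88, standard error 0.06, edgeR adjusted p = 5.1e-10). Mybl2, which encodes B-Myb and is itself transcribed from the G1/S boundary, had 1.85, 1.58 and 1.87 CPM in senescent and 2.46, 2.80 and 2.91 CPM in quiescent libraries. Its log2 fold change was -0.62 (standard error 0.10, edgeR adjusted p = 1.8e-04), and it did not pass the test against 2-fold.

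Kinetochore and centromere genes fell with a median log2 fold change of -2.21. Cenpf (chromosome 1, 189640606 to 189688086), a large protein of the outer kinetochore, had 3.08, 2.65 and 2.24 CPM in senescent libraries and 18.6, 20.2 and 20.1 CPM in quiescent libraries. This was 13.5% of the quiescent level (log2 fold change -2.89, standard error 0.09, edgeR adjusted p = 5.6e-10). Cenpe, a kinesin that carries chromosomes to the spindle middle, was at -2.04, and Cenpa, the histone H3 variant that marks centromeres, at -2.33.

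The 4 subunits of the Ndc80 complex, which ties microtubules to the kinetochore, all fell, and their differences from each other were not tested. Nuf2 was at -2.38 and Ndc80 at -2.21 on the log2 scale, while Spc24 was at -1.77 and Spc25 at -1.50 (standard errors 0.08, 0.10, 0.13 and 0.09 in that order). Spc25 had 1.6, 1.87 and 1.46 CPM in senescent and 4.60, 4.52 and 4.76 CPM in quiescent libraries. Per kb of exon, the levels of Nuf2, Ndc80, Spc24 and Spc25 were 0.262, 0.230, 0.323 and 0.515 CPM in senescent libraries and 1.37, 1.07, 1.10 and 1.45 CPM in quiescent libraries. Spc25 was the highest of the 4 in both groups on this scale, which depends on the exons annotated for each gene.

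The 4 spindle checkpoint genes fell, with log2 fold changes between -2.03 and -1.69. Bub1b, which encodes the checkpoint protein BubR1, had 3.29, 3.37 and 2.94 CPM in senescent and 12.4, 12.6 and 14.1 CPM in quiescent libraries (log2 fold change -2.03, standard error 0.08, edgeR adjusted p = 1.1e-09). Bub1, a checkpoint kinase of the kinetochore (chromosome 2, 127801122 to 127831865), had 2.15, 1.67 and 1.62 CPM in senescent and 5.85, 5.56 and 6.20 CPM in quiescent libraries. Its log2 fold change was -1.69 (standard error 0.10, edgeR adjusted p = 4.5e-08). Ttk, the kinase Mps1 at the top of the checkpoint, was at -1.97 and Mad2l1, which restrains Cdc20, at -1.72.

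The chromosomal passenger complex, which corrects wrong attachments and later directs cytokinesis, was lower in all 4 subunits. Aurkb, its kinase (chromosome 11, 69045647 to 69051664), had 1.20, 1.27 and 1.52 CPM in senescent libraries and 5.52, 5.78 and 5.67 CPM in quiescent libraries (log2 fold change -2.08, standard error 0.09, edgeR adjusted p = 3.2e-09). Birc5 (survivin) was at -1.92 and Cdca8 (borealin) at -1.50. Incenp, the scaffold of the complex, had 11.7, 11.2 and 11.1 CPM in senescent and 23.3, 23.3 and 24.2 CPM in quiescent libraries, a log2 fold change of -1.06 (standard error 0.05). It passed the test of any change but not that against 2-fold (glmTreat adjusted p = 0.218). Per kb of exon, Incenp stood at 2.62 CPM in senescent and 5.45 CPM in quiescent libraries, above the other 3 subunits in both groups, which had 0.425 to 0.452 CPM in senescent and 1.25 to 1.92 CPM in quiescent libraries.

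Spindle assembly genes had the lowest median of the role groups, -2.63. Aspm, a protein of the spindle poles (chromosome 1, 139454772 to 139494091), fell most of all 46 genes, with 1.44, 1.67 and 1.16 CPM in senescent libraries and 10.9, 11.3 and 11.6 CPM in quiescent libraries. It retained 12.5% of the quiescent level (log2 fold change -2.99, standard error 0.10, edgeR adjusted p = 4.2e-10). Nusap1, a microtubule-bundling protein, was at -2.93, Troap, a spindle pole protein, at -2.69, Dlgap5 (HURP), a stabiliser of kinetochore fibres, at -2.57 and Hmmr, a spindle protein that also binds hyaluronan, at -2.44. Tpx2, the activator of Aurora A on the spindle, had the smallest fall of this group, with 10.7, 9.98 and 9.60 CPM in senescent and 29.32, 29.30 and 29.99 CPM in quiescent libraries (log2 fold change -1.55, standard error 0.05, edgeR adjusted p = 4.6e-10).

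Genes of anaphase and of sister chromatid separation spread most widely, between -2.37 and -0.33. Ube2c, the ubiquitin-conjugating enzyme of the anaphase-promoting complex, had 1.06, 0.715 and 0.836 CPM in senescent and 4.57, 4.28 and 4.72 CPM in quiescent libraries (log2 fold change -2.37, standard error 0.12, edgeR adjusted p = 9.0e-09). Cdc20, the activator of that complex and a target of the checkpoint (chromosome 4, 118432901 to 118437352), had 2.74, 2.64 and 3.17 CPM in senescent and 13.2, 12.9 and 14.9 CPM in quiescent libraries. Its log2 fold change was -2.26 (standard error 0.09, edgeR adjusted p = 1.0e-09). Espl1 (separase), the protease that cuts cohesin, was at -1.75 and Cdca5 (sororin), which protects cohesin, at -1.50.

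Pttg1, which encodes securin, the inhibitor of separase, fell least of all 46 genes. It had 2.38, 2.54 and 2.11 CPM in senescent libraries and 3.03, 2.77 and 3.02 CPM in quiescent libraries, and retained 79.7% of the quiescent level. The log2 fold change was -0.33 (standard error 0.09, edgeR adjusted p = 0.0071), the highest adjusted p among the 46. Per kb of exon, Pttg1 stood at 1.17 CPM in senescent libraries, above Mki67 at 1.04 CPM, whereas in quiescent libraries it stood at 1.47 CPM and Mki67 at 5.23 CPM.

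Cytokinesis genes fell between -2.12 and -1.70. Prc1, which bundles the microtubules of the central spindle, had 7.22, 6.44 and 5.80 CPM in senescent and 27.6, 28.5 and 28.6 CPM in quiescent libraries (log2 fold change -2.12, standard error 0.07, edgeR adjusted p = 4.1e-10). Anln (anillin), a scaffold of the contractile ring, had 7.86, 7.51 and 6.63 CPM in senescent and 23.4, 24.3 and 23.9 CPM in quiescent libraries (log2 fold change -1.70, standard error 0.06, edgeR adjusted p = 9.9e-10). Ect2, the exchange factor that activates RhoA at the cleavage site, was at -2.10, its partner Racgap1 at -1.88 and Cep55, which starts abscission, at -1.72.

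Among genes of mitotic chromosome structure, Mki67, the proliferation marker that coats mitotic chromosomes (chromosome 7, 135689784 to 135716361), had 12.0, 9.71 and 9.59 CPM in senescent libraries and 51.6, 55 and 51.1 CPM in quiescent libraries. It was at 19.8% of the quiescent level (log2 fold change -2.33, standard error 0.08, edgeR adjusted p = 1.3e-09). Top2a, the topoisomerase that untangles sister chromatids (chromosome 11, 98992943 to 99024189), had 14.4, 13.5 and 12.3 CPM in senescent and 51.1, 53.5 and 53.6 CPM in quiescent libraries (log2 fold change -1.98, standard error 0.06, edgeR adjusted p = 2.2e-10). Cdca2, which recruits protein phosphatase to chromatin, was at -2.01.

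In order of fall, the 46 genes formed a near-continuous series. They stood at under 20% of the quiescent level for 12 genes, 20 to 25% for 12, 25 to 30% for 8 and 30 to 36% for 11, and Incenp, Mybl2 and Pttg1 were above 36%. Of 45 neighbouring pairs in this order, 3 were apart by more than 2 combined standard errors: Cdca5 and Incenp, Incenp and Mybl2, and Mybl2 and Pttg1. The order among the other 43 genes is therefore not resolved step by step. Of the 46, 39 were among the 1000 genes with the lowest log2 fold changes of the 14065 tested.

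**Figure D2:**
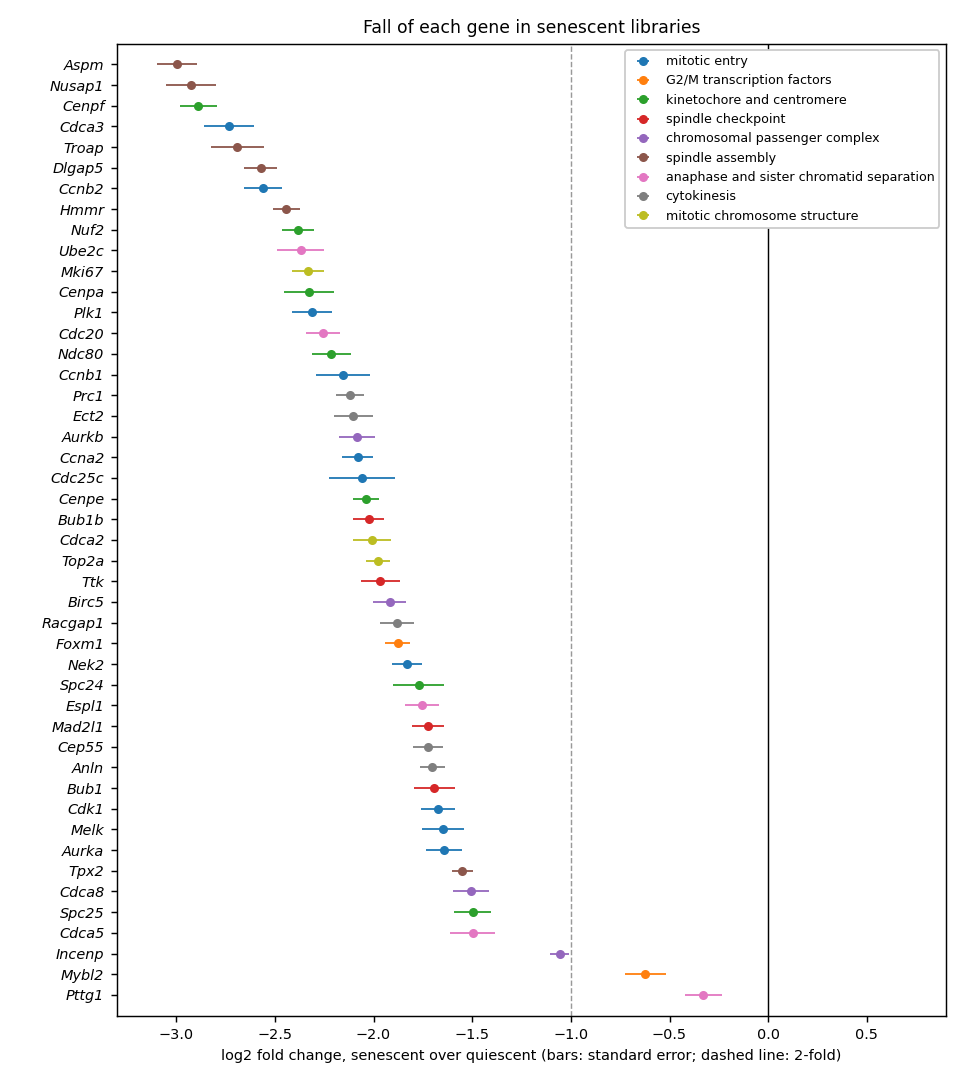
Fitted log2 fold change, senescent over quiescent, of each gene with its standard error, coloured by role and ordered by fall, with 2-fold marked by a dashed line. Spindle assembly genes other than Tpx2 (-1.55) lie near the top of the order, from Hmmr at -2.44 to Aspm at -2.99, among genes of other roles. Incenp, Mybl2 and Pttg1 form the tail at -1.06, -0.62 and -0.33.

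Levels between genes were compared per kb of annotated exon. The length takes in every annotated exon of a gene, whichever transcripts are expressed, so ranks between genes depend on the annotation. They ranged from 0.0668 CPM per kb (Cdc25c) to 2.62 (Incenp) in senescent libraries and from 0.277 (Cdc25c) to 7.31 (Cdc20) in quiescent libraries. The median position of the 46 among the 13783 tested genes with a length was the 34.2 percentile in senescent libraries and the 61.7 percentile in quiescent libraries. Cdc20 stood at the 62.1 percentile in senescent and the 92.4 percentile in quiescent libraries, and Aspm at the 17.0 percentile in senescent and the 50.8 percentile in quiescent libraries. Across the 46 genes, which share libraries and are not independent replicates, the quiescent level per kb and the log2 fold change had a Spearman rho of -0.02.

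**Figure D3:**
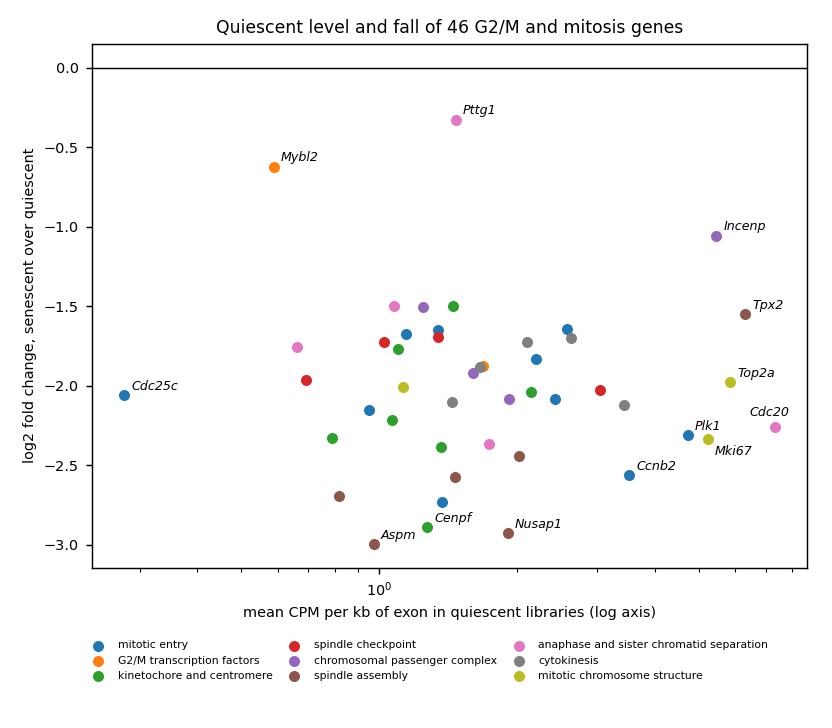
Log2 fold change, senescent over quiescent, of the 46 genes against their mean quiescent level in CPM per kb of exon (log axis), with each point a gene coloured by role. The Spearman rho is -0.02, and genes of similar level such as Plk1 and Incenp, at 4.73 and 5.45 CPM per kb, differ in their fall, at -2.31 and -1.06.

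Another 121 genes of the mitotic apparatus and its regulators, some also active outside mitosis, were grouped by role from known function. Their median log2 fold change was -0.72, and 85 fell and 19 rose, against 37.8% and 36.7% of all tested genes. With library totals in place of TMM factors, 100 fell and 7 rose, where the calls over all genes became 7435 lower and 2952 higher, against 5316 and 5158 with TMM. The lists closest to the 46 were the other spindle and centrosome genes (16 of 18 fell and 1 rose, median -1.56) and the other outer kinetochore and checkpoint subunits (11 of 16 fell and 2 rose, median -1.53, with 14 and 1 under library totals). Ckap2l, a spindle protein, was at -2.74 and Psrc1, a microtubule regulator, at 0.37. In the second list Knl1, the kinetochore scaffold that recruits Bub1, was at -2.18. Zwint, which encodes a kinetochore protein, had a log2 fold change of 1.22 and averaged 64.9 CPM in senescent and 27.9 CPM in quiescent libraries.

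Of 19 genes of the constitutive centromere network and of Cenpa loading, 18 fell and 0 rose, with a median of -1.23 and Cenpc1, a core centromere protein, at -0.28. Of 14 other regulators of mitotic entry, 9 fell and 4 rose, with a median of -1.10 (9 and 2 with library totals). Cdc25b, a phosphatase that starts Cdk1 activation, was at -2.34, and Plk2, a stress-responsive polo-like kinase, rose by 2.48 where Plk1 fell by 2.31. Of 12 other cytokinesis genes, 6 fell and 4 rose, with a median of -0.42, and with library totals 8 fell and 1 rose. The kinesin gene Kif20a was at -2.23 and Septin9, a filament-forming GTPase, rose by 0.97.

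Other lists held complexes that are also known to act outside mitosis or to regulate the program. Of the 14 core subunits of the anaphase-promoting complex, 8 fell and 2 rose, with a median of -0.21 and 0 lower beyond 2-fold, and with library totals 12 fell and 1 rose. Cdc23 was at -0.78 and Anapc7 at 0.56, where its mitotic partners Cdc20 and Ube2c, described above, were at -2.26 and -2.37. Of 3 other partners, 2 fell and 1 rose: Fbxo5, an inhibitor of the complex, was at -1.33, Fzr1, its activator in G1, at -0.58 and Ube2s, a second conjugating enzyme, at 0.49. Of 12 genes of cohesin and its regulators, 8 fell and 3 rose, with a median of -0.25. With library totals 9 of these fell and 0 rose, and with upper quartile factors 8 fell and 1 rose. Esco2, the acetyltransferase of S phase cohesin, was at -2.06 and Wapl, which releases cohesin, at 0.25. The list of 13 genes for the DREAM and MuvB complexes also held Rb1 (-0.85), E2f1 (-0.40) and the kinase Dyrk1a (-0.0015), which are not subunits. Of the 13, 7 fell and 2 rose, with a median of -0.23, Rbl2 (p130) at -1.18 and E2f5 at 0.84. With library totals 11 of the 13 fell and 2 rose. Without TMM scaling Wapl was at -0.05, and Wapl, Ube2s and Psrc1 did not pass the test (edgeR adjusted p = 0.54, 0.174 and 0.59).

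**Figure D4:**
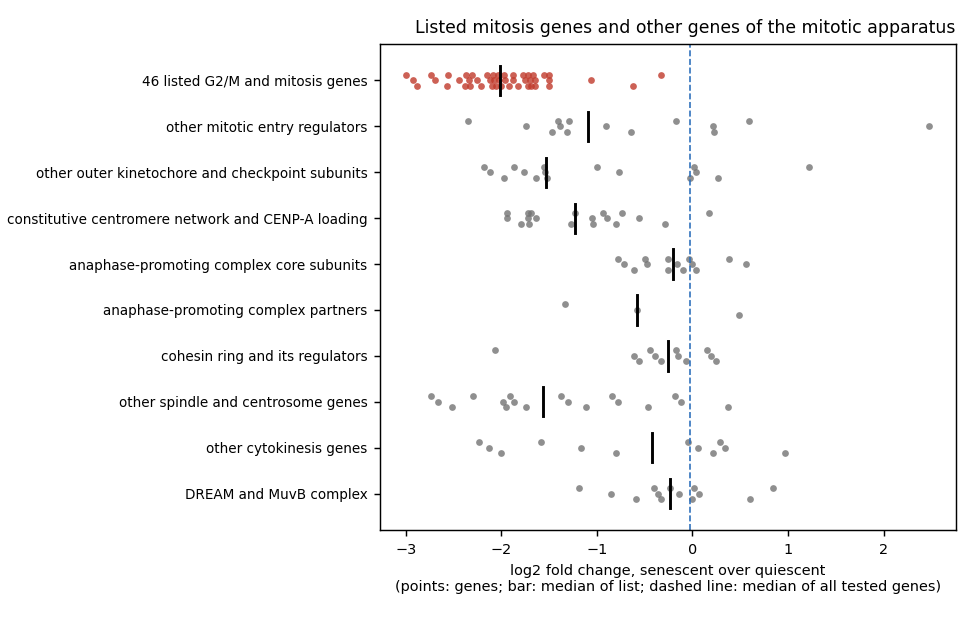
Log2 fold change, senescent over quiescent, of the 46 genes (top row) and of 9 lists of other genes of the mitotic apparatus and its regulators. Each point is a gene, black bars are list medians and the dashed line is the median of all tested genes at -0.02. The medians run from -2.02 for the 46 genes to -0.21 for the core subunits of the anaphase-promoting complex.

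The CHR sequence TTTGAA, read on both strands, was present in the promoter windows of 25 of the 37 genes that have one, or 67.6%, and in those of 14.5% of 11053 tested genes with windows. It lay within 50 bases of the annotated start in 24 members, or 64.9%, against 3.75% of tested genes. The CCAAT box, also read on both strands, was present in 26 of the 37 genes, or 70.3%, against 43.1%. Both were present in 21 members, or 56.8%, against 7.29%. The third sequence searched, TTTCCCGC, an exact string that resembles an E2F site, was in 0 of the 37 genes and in 2.32% of tested genes. It is too rare for this 0 to set the members apart. In the windows printed above, a CHR lies after the annotated start in all 4 genes with both, Ccnb2 holds another before it, and the CCAAT boxes lie before the start. No sequence searched contains another, and a match describes the letters only.

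The members were then grouped by the sequences in their windows, as a description with no test. Only these exact strings were searched, so a gene counted as without a CHR may hold another form of it. The median log2 fold change was -2.12 for the 21 genes with both, -1.71 for the 4 with the CHR alone, -2.04 for the 5 with the CCAAT box alone and -1.72 for the 7 with neither. Those 7 were Melk, Mybl2, Nuf2, Mad2l1, Birc5, Nusap1 and Pttg1, and they ran from -2.93 for Nusap1 to -0.33 for Pttg1. Mybl2 and Pttg1, with the smallest falls, were among them, and Incenp had no window in the table. For Pttg1 the sequence before its GENCODE start was not searched, so its place among the genes with neither depends on the annotation. The 9 genes without a window had a median of -2.01.

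**Figure D5:**
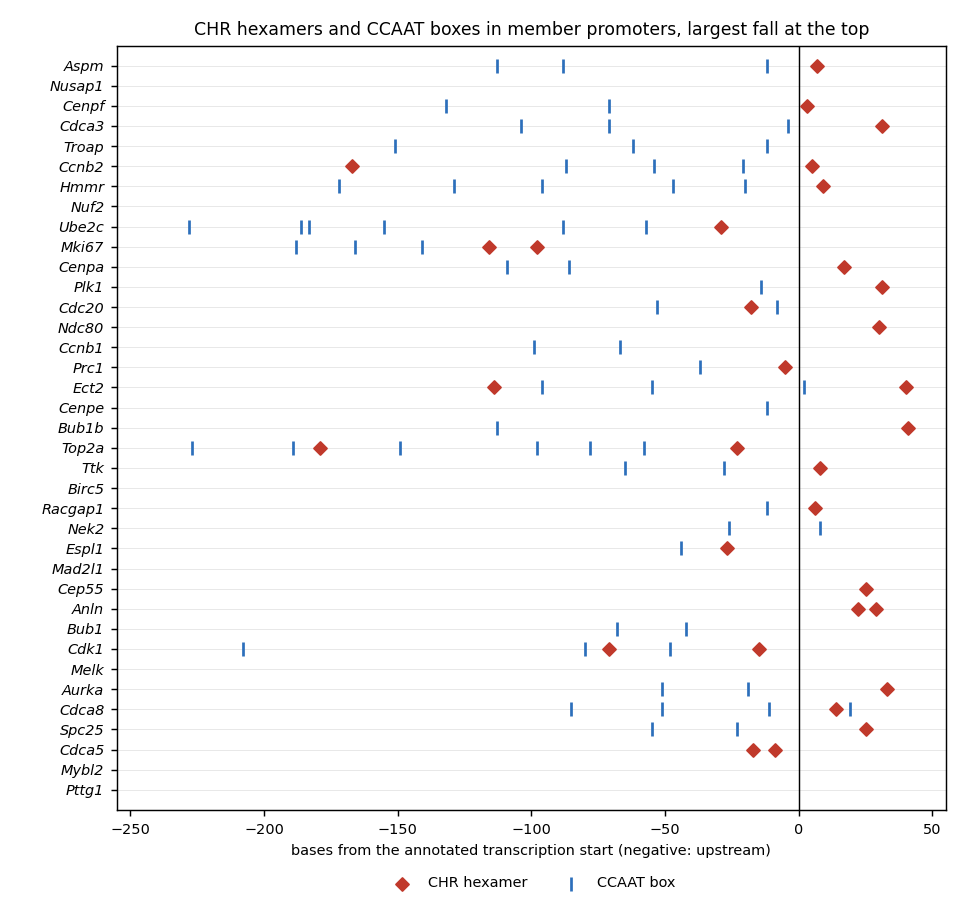
Position of each CHR (TTTGAA, diamonds) and CCAAT box (vertical ticks), on either strand, from 250 bases before to 50 after the annotated start in the 37 genes with a promoter window (the table's first window for genes with several), ordered by fall with the largest at the top. CHR sequences cluster within 50 bases of the start in 24 genes, and each of 26 genes has a CCAAT box before the start. The rows of Nusap1, Nuf2, Birc5, Mad2l1, Melk, Mybl2 and Pttg1 are empty, and the Pttg1 window lies inside its GENCODE gene span.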

How the data were processed

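RNA depleted of ribosomal RNA was sequenced with a directional kit as paired reads of 100 bp, per the labels' protocols. The deposited table holds the authors' raw counts by gene symbol in 6 libraries, whose totals differ. The build mm10, edgeR 3.32.1 and limma 3.46.0 are named without a role in the submitters' processing notes. The aligner, the counting tool and the use of strand are among details not given in the sources used here. The deposited counts were fitted with edgeR 4.0.16 in R 4.3.3 over the whole table: filterByExpr with a minimum count of 10, TMM factors, robust quasi-likelihood F test, Benjamini-Hochberg adjustment over 14065 genes at 0.05, and glmTreat against a 2-fold change. All 46 members passed the filter. Each standard error is the absolute log2 fold change over the root of F. The fit was tried on simulated counts with the same variability for every gene and few changed genes, a simpler setting than these data. Rn45s, Lars2 and Mir6236 stayed in the totals and took 79.8 to 82.8% of counts. Exon lengths and positions come from GENCODE M21 (GRCm38, the assembly mm10 names), matched by symbol for 24366 of 25239 rows and all 46 members. Exons of 12 members overlap another gene, and without known strand use their counts are uncertain to that extent. By the rule for named genes, values in every library were given for the largest and smallest fall in each role group and for 10 fixed genes. From each other list the highest and lowest called genes were named, except 1 gene that is not reported here. The members and lists were chosen with earlier results of these data known. Alternatives were DESeq2 1.42.0, limma-voom (limma 3.58.1), other scalings and filters, a block on replicate number, and leaving out each library. Reads without molecular identifiers are not independent molecules. The table of repeat counts was not used here.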

Additional observations from a re-analysis of the deposited data

How the results depend on the processing

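All 46 genes were called lower, and all had non-overlapping groups, under every scaling, filter, tool, library left out and block tried. With TMM and all libraries, all 46 also passed at an adjusted p under 0.01. The 690 single-gene values under these alternatives kept their direction and call. Across the alternatives the highest adjusted p of a member was 0.0307, without quiescent replicate 1 (0.0187 with DESeq2). Members lower beyond 2-fold stayed at 43 with each library left out and were 44 with library totals and with upper quartile factors. The median of the members, -2.02, was -2.31 with library totals and -2.11 with upper quartile factors, and ran from -2.05 to -1.91 with a library left out, the last without senescent replicate 3. Library totals moved the median of all genes to -0.32 and the calls to 7435 lower and 2952 higher (5316 and 5158 with TMM). Upper quartile factors moved that median to -0.12. Of the 121 genes of the other lists, 7 rather than 19 rose with library totals. With a library left out, 82 to 85 of them fell and 18 to 19 rose. In the 100 bases before the start alone, 9 members held the CHR, or 24.3% against 4.06% of tested genes. The deviations of same-numbered libraries from their group means had correlations of 0.088, -0.00427 and 0.103 across genes. With 3 libraries a group, these values cannot tell whether same-numbered libraries share a source. With the replicate block 46 members fell, with a median of -2.02. Cdc25c, with the fewest counts, has the largest standard error of the members, 0.17.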

Other observations

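Ratios of counts between partners, chosen after the values were seen and not tested, differed between the groups. Spc25 over Ndc80 was 1.04, 1.13 and 1.14 in senescent libraries and 0.662, 0.703 and 0.645 in quiescent libraries, and Spc24 over Ndc80 was 0.578, 0.561 and 0.523 in senescent and 0.392, 0.409 and 0.424 in quiescent libraries. Nuf2 over Ndc80 overlapped, at 1.05, 0.966 and 1.38 in senescent and 1.19, 1.33 and 1.26 in quiescent libraries. Pttg1 over Espl1, securin over separase, was 1.42, 1.59 and 1.13 in senescent and 0.552, 0.485 and 0.486 in quiescent libraries. Plk1 over Aurka was 1.03, 1.19 and 0.817 in senescent and 1.47, 1.68 and 1.65 in quiescent libraries. Ccnb1 over Ccnb2 overlapped, at 1.24, 0.663 and 1.09 in senescent and 0.697, 0.769 and 0.771 in quiescent libraries.

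Exons of 12 members overlap another annotated gene, and values of some of these genes follow. Exosc9, which overlaps 12.5% of the exon length of Ccna2, averaged 6.38 CPM in senescent and 4.94 CPM in quiescent libraries (log2 fold change 0.37). Rccd1, which overlaps 11.1% of that of Prc1, had a log2 fold change of 0.25 (edgeR adjusted p = 0.103). Tnnc2, which overlaps 22.8% of that of Ube2c, averaged 0.0433 CPM in senescent and 0.0514 CPM in quiescent libraries, far below Ube2c. Elovl1, which overlaps 2.84% of that of Cdc20, fell by 0.60 on the log2 scale, and Oip5, a centromere gene that overlaps 4.24% of that of Nusap1, fell by 1.94.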
